A study of Mus musculus with 6 samples.

Results

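The 35 genes described here are mouse NF-kB factors, their inhibitors, and the inflammatory cytokines, chemokines, receptors and effectors that go with this pathway. They were chosen by gene symbol and not by a cut on measured values, though with earlier results of these data known. All 35 were found among the 49585 gene rows of the count table. By role they are 5 NF-kB subunits, 5 members of the IkB family, 3 feedback inhibitors, 5 genes of TNF family signalling, 4 interleukins and inflammasome genes, 3 CXC chemokines, 6 CC chemokines and 4 other inflammatory genes. They were measured by poly(A) RNA-seq in cultured bone marrow leukaemia cells called MA9, a common short name for the MLL-AF9 fusion. All 6 libraries came from cells given 5 uM Nutlin, an MDM2 inhibitor that stabilises p53, for 18 h. Of these, 3 libraries were labelled Gata2 f/f (loxP-flanked alleles) and 3 Gata2 KO (Gata2 -/-, with Cre in their descriptions). No untreated cells were analysed here, and the Cre driver, strain, sex and age of the mice are not stated in the labels, nor whether the f/f cells had met Cre. The medium held 15% serum and murine IL-3, IL-6 (10 ng/mL) and SCF (20 ng/mL), so IL-6 protein was supplied to every culture.

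NF-kB proteins are dimers of the subunits encoded by Nfkb1, Nfkb2, Rel, Rela and Relb. IkB proteins hold them in the cytoplasm until receptors such as those for TNF and IL-1 trigger IkB breakdown, after which the dimers bind kB sites near their target genes. Among those targets are the genes of the IkB inhibitors themselves, which close a negative feedback loop, and the cytokines and chemokines by which myeloid cells, normal or leukaemic, call in and activate other cells.

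The kB consensus, the class of sites that NF-kB dimers bind, was searched for on both strands of the RefSeq promoter windows (GRCm38.p6), which run from 250 bases before to 50 bases after each annotated start. A window was held for 28 of the 35 genes, and 13 of these (46.4%) had a match, against 9.55% of the 27025 genes with a window. By role, matches were found for Nfkb2 and Rel among 3 subunits, for Nfkbia, Nfkbie and Bcl3 among 4 IkB genes, for Tnfaip3 among 3 feedback inhibitors, for none of 4 TNF family genes, for Il6 and Nlrp3 among 4 interleukin and inflammasome genes, for all 3 CXC chemokines, for Ccl9 among 3 CC chemokines and for Tnfaip2 among 4 other genes. With a narrower motif, GGG, any 3 bases and then TTCC, which overlaps the consensus, 11 of the 28 genes (39.3%) matched, against 6.31% of all genes with a window. The following 9 stretches end before the first exon annotated by GENCODE, which for Cxcl1 and Cxcl2 begins upstream of the RefSeq start, and read 5′ to 3′ on the gene's strand, with bases covered by a consensus match in capitals. The CXC chemokines are shown because all 3 carry the same match, GGGAATTTCC, with its first base 71, 97 and 73 bases before the RefSeq start of Cxcl1, Cxcl2 and Cxcl3. Nfkbia and Nfkbie are shown as IkB genes, Rel as a subunit and Il6 as a cytokine. Ccl9 and Ccl6 are shown as neighbours on chromosome 11, of which the first had a match and the second had none in its window.
Cxcl1 (chr5:90891125-90891240, plus strand): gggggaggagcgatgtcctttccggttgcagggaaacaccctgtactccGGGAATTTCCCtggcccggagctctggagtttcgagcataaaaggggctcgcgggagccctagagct
Cxcl2 (chr5:90903779-90903870, plus strand): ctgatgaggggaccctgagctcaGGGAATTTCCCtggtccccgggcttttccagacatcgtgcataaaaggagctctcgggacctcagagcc
Cxcl3 (chr5:90785981-90786100, plus strand): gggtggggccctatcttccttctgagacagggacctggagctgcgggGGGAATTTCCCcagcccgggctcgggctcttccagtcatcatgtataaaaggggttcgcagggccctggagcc
Nfkbia (chr12:55492648-55492767, minus strand): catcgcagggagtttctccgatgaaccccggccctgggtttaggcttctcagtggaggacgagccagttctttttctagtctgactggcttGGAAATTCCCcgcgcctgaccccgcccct
Nfkbie (chr17:45555580-45555699, plus strand): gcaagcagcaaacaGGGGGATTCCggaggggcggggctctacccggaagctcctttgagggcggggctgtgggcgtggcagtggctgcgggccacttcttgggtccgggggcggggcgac
Rel (chr11:23770971-23771089, minus strand): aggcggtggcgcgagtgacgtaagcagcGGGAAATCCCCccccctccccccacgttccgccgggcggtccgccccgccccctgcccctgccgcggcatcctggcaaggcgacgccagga
Il6 (chr5:30012994-30013113, plus strand): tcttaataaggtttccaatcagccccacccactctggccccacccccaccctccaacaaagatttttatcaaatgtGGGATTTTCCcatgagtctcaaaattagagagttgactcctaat
Ccl9 (chr11:83578637-83578756, minus strand): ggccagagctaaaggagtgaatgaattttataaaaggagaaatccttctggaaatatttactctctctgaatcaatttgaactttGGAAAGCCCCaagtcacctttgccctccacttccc
Ccl6 (chr11:83593088-83593207, minus strand): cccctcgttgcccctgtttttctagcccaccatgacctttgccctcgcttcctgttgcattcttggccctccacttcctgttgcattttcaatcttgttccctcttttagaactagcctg

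A match is a description of letters and no evidence of binding. Between the genes with and without a match, the difference between libraries numbered 3 and the others, described further on, had overlapping ranges: its median was 1.56 on the log2 scale (0.33 to 4.27) in the 13 genes with a match and 1.10 (0.21 to 4.63) in the 15 without.

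Libraries held 17138687 to 26440960 counts, and all 35 genes were detected in each of the 6. Levels are TMM-scaled CPM, a gene's reads relative to all reads of its library, and values are given in the order of the library numbers 1, 2 and 3. Gata2 itself stood at 33.6, 22.3 and 18.4 CPM in the f/f libraries and at 5.44, 43.3 and 4.33 CPM in the KO libraries, so the library labelled Gata2 KO 2 went against its label, with the highest Gata2 level of the 6. The labels do not say which part of the gene was deleted, so reads from outside it could count too. The labels do not say what the numbers stand for. The libraries numbered 3 differed from the other 4 at 19.0% of all tested genes (edgeR test, adjusted p under 0.05). This was known before the genes here were described. The mitochondrial share of counts was 1.24% in both libraries numbered 3 and 0.399% to 0.975% in the others. The share in a list of genes that carry rRNA sequence split the libraries otherwise. It was 1.41% in f/f 1 and 1.02% in the library labelled Gata2 KO 2, and 0.158% to 0.250% in the others. Of 12 monocyte and macrophage markers, 11 were higher in number 3, among them Csf1r and Cd68, and their summed level was 700 to 1023 CPM in the 4 libraries numbered 1 and 2 and 2230.2 and 2768 CPM in f/f 3 and KO 3. Of 9 tested neutrophil markers, 3 were higher in number 3, as were 4 of 7 markers of stroma and endothelium (Col1a1, Col1a2, Col3a1 and Cdh5), 2 of 3 tested megakaryocyte markers (Pf4 and Ppbp) and the 1 tested dendritic cell marker. Markers of T and NK cells summed to 0.570 to 3.32 CPM, with 7 of 8 under 1 CPM in every library, and 5 of 6 B cell markers were under 1 CPM in every library. In bulk RNA, more cells of a type and more RNA per cell cannot be told apart.

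The 35 genes spanned a wide range of levels. Per kilobase of exon and averaged over the 6 libraries, the chemokines Ccl6 (390.4 CPM per kb) and Ccl9 (147) and the acute-phase gene Saa3 (91.1) were highest, followed by the TNF receptor gene Tnfrsf1a (60.4) and the inhibitor gene Nfkbia (57.3). Cd40 was lowest at 0.144 CPM per kb, below Traf1 (0.222) and Il6 (0.241). Of the 34 genes that passed the filter on low counts, 15 stood at 10 CPM or more in every library and 8 under 10 CPM in every library. Cd40, the receptor for CD40 ligand, did not pass the filter, with 6, 2 and 15 counts in the f/f and 7, 6 and 30 counts in the KO libraries.

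**Figure D1:**
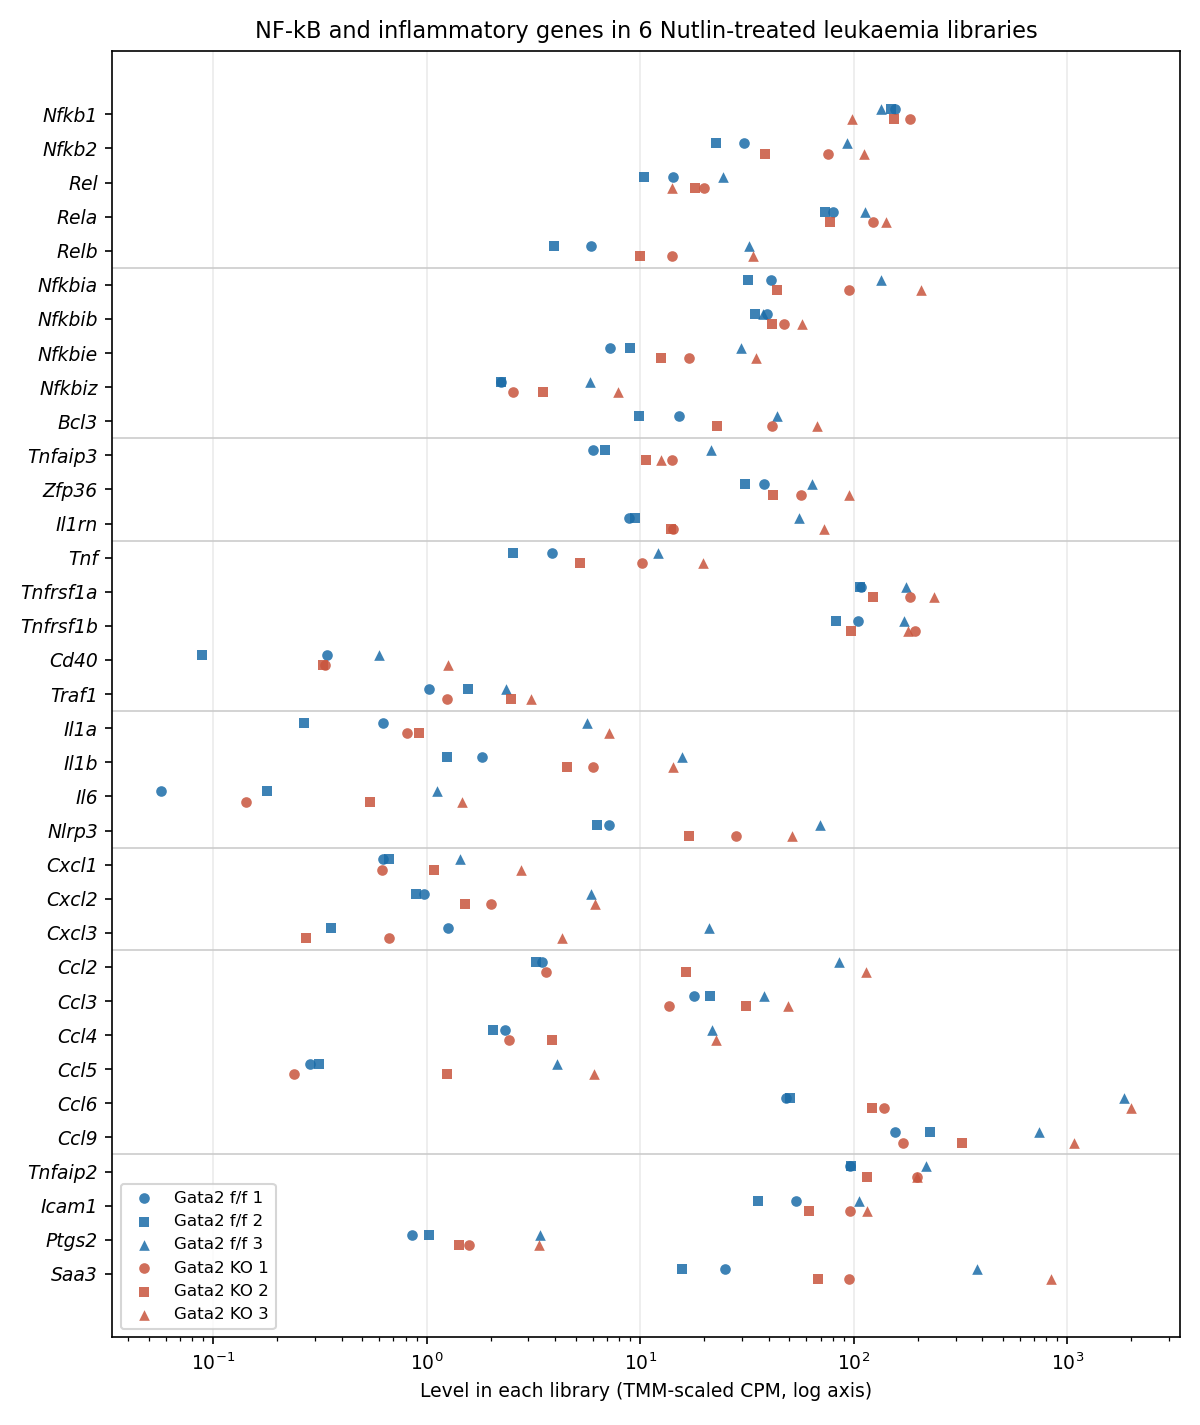
Level of each of the 35 genes (TMM-scaled CPM, log axis) in the 6 libraries, with genes grouped by role and separated by grey lines; blue stands for Gata2 f/f, red for Gata2 KO, and circles, squares and triangles for numbers 1, 2 and 3. For 32 of the 34 tested genes the highest value was in a library numbered 3, with Nfkb1 and Tnfrsf1b as the exceptions.

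The largest pattern among these genes ran between library numbers and not between genotypes. In a fit with genotype and number, 25 of the 34 tested genes were higher in the libraries numbered 3 than in those numbered 1 and 2 (edgeR quasi-likelihood test, adjusted p under 0.05), against a background of 12.0% of all 13744 tested genes higher and 6.98% lower, and none of the 34 was lower. The median difference of the 34 was 1.53 on the log2 scale, against a median of -0.001 over all genes. Both libraries numbered 3 lay above the other 4 for 26 of the 34, against 21.1% of all genes, and below them for Nfkb1 alone, against 20.4%. Number 3 was singled out with the data known, and only 1 library of each genotype bears it, so these p-values only describe the gap. They set it against how far the differences between numbers disagreed in the 2 genotypes. The fit absorbs differences between numbers 1 and 2, so these are no part of that spread. Leaving out any 1 library left between 20 (without f/f 2 or KO 3) and 26 (without KO 1) of the genes called. The calls of Tnfrsf1a and Ptgs2 were each lost without any of 5 libraries, Ccl3 without 3, Il6, Nfkbiz and Icam1 without 2, and Ccl5 and Zfp36 without 1. With no filter on low counts the call of Nlrp3 was lost (edgeR adjusted p = 0.0743). Conversely, Nfkb1 was called lower in number 3 without f/f 3 (-0.75, edgeR adjusted p = 0.0218), Tnfaip3 was called higher without KO 3, and Tnfaip2 and Tnfrsf1b without KO 1. The summed levels of monocyte and macrophage markers, single markers of neutrophils, stroma, endothelium, megakaryocytes and dendritic cells, and the mitochondrial share moved the same way, and their part in the pattern was not tested.

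Among the subunits, the pattern split the members. Nfkb1, which encodes p105 and its product p50, stood at 156, 149.8 and 135 CPM in f/f and 184, 154 and 98.4 CPM in KO libraries (number 3 against 1 and 2: -0.47 ± 0.20 SE on the log2 scale, edgeR adjusted p = 0.145). Both its libraries numbered 3 lay below the others. Per kilobase of exon it averaged 12.1 CPM, against 33.1 for Rela, with joined exon lengths of 12061 and 3072 bases. As a joined length can exceed that of the transcript expressed, these values do not rank the abundance of Nfkb1 and Rela. Rela, which encodes the transactivating subunit p65, stood at 80.2, 73.7 and 113 CPM in f/f and 123, 77.8 and 142 CPM in KO libraries (0.54 ± 0.18, edgeR adjusted p = 0.0800). Neither passed the test. The subunit genes of the noncanonical branch, Nfkb2 and Relb, did. Nfkb2, which encodes p100 and p52, stood at 30.7, 22.8 and 93.2 CPM in f/f and 75.7, 38.4 and 112 CPM in KO libraries (1.44 ± 0.23, edgeR adjusted p = 0.0126). Relb, the partner of p52, stood at 5.87, 3.97 and 32.5 CPM in f/f and 14.1, 9.99 and 33.7 CPM in KO libraries (2.16 ± 0.31, edgeR adjusted p = 0.00880). For both genes the libraries numbered 3 were the highest pair, and f/f 1 and f/f 2 the lowest. Rel, the subunit c-Rel, was 14.2, 10.5 and 24.3 CPM in f/f and 20.0, 18.1 and 14.0 CPM in KO libraries, with no shared order of the numbers in the 2 genotypes (0.33 ± 0.35, edgeR adjusted p = 0.526). Nfkb2 shares 299 bases of exon with Psd on the opposite strand, and strand use in counting is not stated, but Psd had 607 counts in all against 8336 for Nfkb2.

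In the IkB family, 4 of 5 genes rose in number 3. Nfkbia, which encodes the main feedback inhibitor IkB-alpha, stood at 41.1, 31.9 and 135 CPM in f/f and 94.8, 43.9 and 207 CPM in KO libraries (1.78 ± 0.20 on the log2 scale, edgeR adjusted p = 0.00476). Nfkbie, the inhibitor IkB-epsilon, stood at 7.24, 9.01 and 29.6 CPM in f/f and 16.9, 12.5 and 35 CPM in KO libraries (1.56 ± 0.25, edgeR adjusted p = 0.0126). In both genes the 2 libraries numbered 3 lay above the other 4. Bcl3, a nuclear IkB protein that works with p50 and p52 dimers, stood at 15.2, 9.86 and 43.7 CPM in f/f and 41.6, 22.8 and 67.0 CPM in KO libraries (1.49 ± 0.22, edgeR adjusted p = 0.00985). Nfkbiz, the nuclear inducible IkB-zeta, was lower, at 2.22, 2.23 and 5.86 CPM in f/f and 2.53, 3.53 and 7.90 CPM in KO libraries (1.39 ± 0.28, edgeR adjusted p = 0.0220). Nfkbib, the inhibitor IkB-beta, was the exception: its levels, 39.3, 34.3 and 37.6 CPM in f/f and 47.1, 41.3 and 57.3 CPM in KO libraries, spanned only 1.67-fold from lowest to highest, with 0.21 ± 0.18 between numbers (edgeR adjusted p = 0.444). Its KO libraries all lay above its f/f libraries, which no other tested gene of the 34 showed. Nfkbib shares 42 exon bases with Sirt2 on the opposite strand, a gene with 9161 counts against 5514 for Nfkbib.

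Of the feedback inhibitors, Il1rn, which encodes the IL-1 receptor antagonist, stood at 8.84, 9.45 and 55.3 CPM in f/f and 14.3, 14.0 and 72.5 CPM in KO libraries (2.48 ± 0.18 on the log2 scale between numbers, edgeR adjusted p = 0.00195). Zfp36, which encodes tristetraprolin, a protein that destabilises cytokine mRNAs, stood at 38.0, 31.1 and 63.9 CPM in f/f and 56.5, 42.1 and 94.9 CPM in KO libraries (0.93 ± 0.16, edgeR adjusted p = 0.0152). Both rose in number 3 in each genotype. Tnfaip3, which encodes the ubiquitin-editing inhibitor A20, did not pass the test: it was 6.05, 6.82 and 21.5 CPM in f/f and 14.0, 10.6 and 12.5 CPM in KO libraries (0.95 ± 0.41, edgeR adjusted p = 0.147). Its level in f/f 3 was the highest of the 6, while KO 3 lay between KO 1 and the library labelled Gata2 KO 2.

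In TNF family signalling, Tnf itself, the ligand, was scarce at 3.88, 2.54 and 12.2 CPM in f/f and 10.2, 5.21 and 19.8 CPM in KO libraries (1.69 ± 0.25 on the log2 scale between numbers, edgeR adjusted p = 0.00904). Its main receptor gene, Tnfrsf1a, was abundant at 108, 108 and 176 CPM in f/f and 184, 124 and 238 CPM in KO libraries (0.68 ± 0.18, edgeR adjusted p = 0.0440). Both genes passed the test, the receptor with a smaller difference than the ligand. Tnfrsf1b, the second TNF receptor, stood at 105, 82.6 and 173 CPM in f/f and 193, 97.1 and 179 CPM in KO libraries, with its highest value in KO 1 (0.63 ± 0.21, edgeR adjusted p = 0.0784). Traf1, an adaptor bound to TNF receptors, stayed between 1.03 and 3.07 CPM (0.84 ± 0.34, edgeR adjusted p = 0.129).

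All 4 interleukin and inflammasome genes rose in number 3. Il1b, the ligand IL-1-beta, stood at 1.83, 1.25 and 15.7 CPM in f/f and 6.02, 4.56 and 14.2 CPM in KO libraries (2.46 ± 0.45 on the log2 scale, edgeR adjusted p = 0.0165). Nlrp3, the sensor of the inflammasome that matures IL-1-beta, stood at 7.19, 6.29 and 69.3 CPM in f/f and 28.2, 17 and 51.4 CPM in KO libraries (2.40 ± 0.47, edgeR adjusted p = 0.0204). In both genes KO 1 and the library labelled Gata2 KO 2 lay above f/f 1 and f/f 2, while f/f 3 was the highest library of all. Il1a, the ligand IL-1-alpha, was 0.627, 0.268 and 5.62 CPM in f/f and 0.812, 0.923 and 7.14 CPM in KO libraries (3.35 ± 0.40, edgeR adjusted p = 0.00548). Il6 reached at most 1.47 CPM, in KO 3, and 1.12 CPM in f/f 3, against 0.0570 to 0.543 CPM in the other 4 libraries (2.82 ± 0.53, edgeR adjusted p = 0.0181). These low Il6 levels were measured in cells grown with added IL-6.

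The chemokines held the largest differences. Ccl6, a monocyte-attracting CC chemokine of mice, stood at 48.4, 50.3 and 1849.7 CPM in f/f and 139, 122 and 1996 CPM in KO libraries (4.63 ± 0.31 on the log2 scale, edgeR adjusted p = 0.00161). Ccl2, the ligand of the monocyte receptor CCR2, stood at 3.48, 3.26 and 85.0 CPM in f/f and 3.63, 16.4 and 115 CPM in KO libraries (4.19 ± 0.43, edgeR adjusted p = 0.00371). In both genes f/f 3 and KO 3 were far above every other library. Ccl9, a further CC chemokine of mice, stood at 156, 229 and 738 CPM in f/f and 169, 323 and 1076 CPM in KO libraries (2.08 ± 0.17, edgeR adjusted p = 0.00214). The other CC chemokines also rose: Ccl4 by 3.08 ± 0.27, Ccl5 by 3.54 ± 0.47 and Ccl3 by 1.10 ± 0.24 (edgeR adjusted p = 0.00277, 0.00703 and 0.0279). Of these, Ccl3 was the most abundant per kilobase of exon (37.3 CPM per kb), and Ccl5 stayed between 0.239 and 6.05 CPM. Ccl3, Ccl4, Ccl5, Ccl6 and Ccl9 lie together on chromosome 11, from 83525778 (Ccl5) to 83664683 (Ccl4) in GRCm38, with Ccl2 farther off at 82035571.

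Of the CXC chemokines, which attract neutrophils through CXCR2, Cxcl2 stood at 0.970, 0.892 and 5.90 CPM in f/f and 2.01, 1.52 and 6.13 CPM in KO libraries (2.23 ± 0.35 on the log2 scale between numbers, edgeR adjusted p = 0.0107). Cxcl3 was the only one with its top level in f/f 3: it stood at 1.25, 0.357 and 21.1 CPM in f/f and 0.669, 0.271 and 4.33 CPM in KO libraries (4.27 ± 0.43, edgeR adjusted p = 0.00350). Within each number the KO library was the lower one for Cxcl3, which no other of the 34 genes showed. Cxcl1 was 0.627, 0.669 and 1.43 CPM in f/f and 0.621, 1.09 and 2.77 CPM in KO libraries and just missed the test (1.46 ± 0.41, edgeR adjusted p = 0.0536). These 3 genes lie on chromosome 5 between 90786103 (Cxcl3) and 90905938 (Cxcl2) in GRCm38. They carry the same kB match in the sequences above. Cxcl2 and Cxcl3 share 7.59% and 5.46% of their 31-base transcript words with other genes, the first partner of each being the other, so a small part of their reads could be split.

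Among the other genes, Saa3, an acute-phase protein of macrophages, stood at 24.9, 15.8 and 380.2 CPM in f/f and 95.1, 68.1 and 841 CPM in KO libraries (3.84 ± 0.23 on the log2 scale between numbers, edgeR adjusted p = 0.00108). Its KO library exceeded the f/f library of the same number 3.82-, 4.31- and 2.21-fold. Saa3 shares 7.44% of its 31-base transcript words with other genes. Icam1, an adhesion receptor for leukocyte integrins, stood at 53.6, 35.5 and 105 CPM in f/f and 95.7, 62.0 and 116 CPM in KO libraries (0.94 ± 0.21, edgeR adjusted p = 0.0279). Ptgs2, the prostaglandin-forming enzyme COX-2, was scarce, between 0.855 and 3.39 CPM (1.51 ± 0.36, edgeR adjusted p = 0.0358). Tnfaip2 was 95.7, 97.1 and 219 CPM in f/f and 198, 116 and 198 CPM in KO libraries and did not pass (0.79 ± 0.25, edgeR adjusted p = 0.0726). Saa3 and Tnfaip2 thus differed in pattern: KO 1 was near the level of the libraries numbered 3 for Tnfaip2 and well under it for Saa3.

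**Figure D2:**
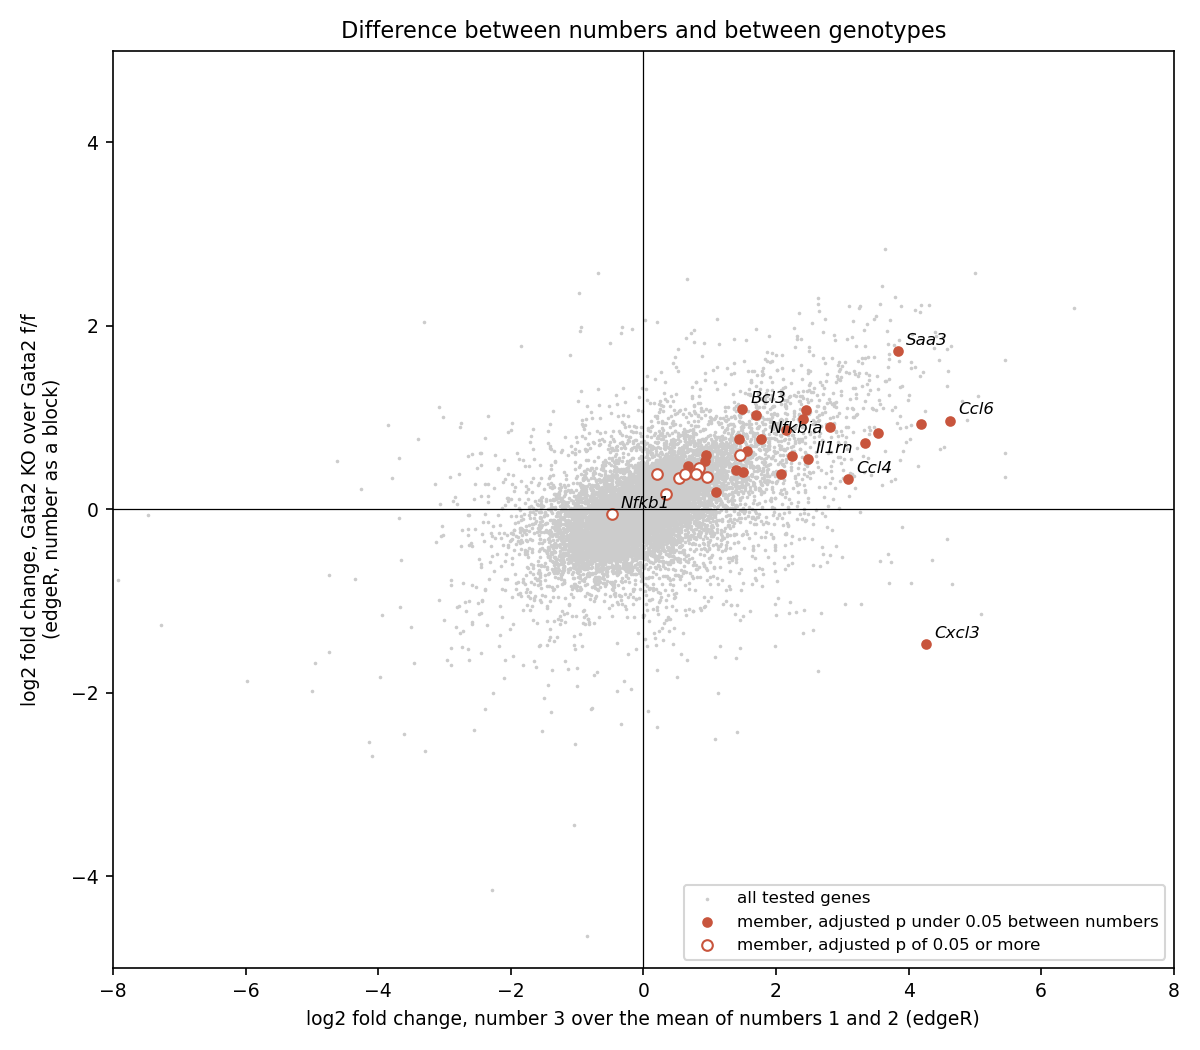
Log2 fold change of number 3 over the mean of numbers 1 and 2 (x axis) against that between the genotypes, KO over f/f, with the number as a block (y axis), for all tested genes in grey and the 34 tested genes of the list in red; filled circles passed the test between numbers. Of the 34, 33 lie to the right of 0, with Nfkb1 as the exception, and Cxcl3 stands alone well below 0 on the genotype axis. Both axes come from the same 6 libraries.

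The genotype comparison asked whether these genes differed between Gata2 KO and Gata2 f/f cells under Nutlin. None of the 34 passed in the edgeR quasi-likelihood test without a block (adjusted p = 1.00 for each), and neither did any of all 13744 genes, a background of 0%. At an unadjusted p under 0.05 the test had 0 of the 34 and 171 of all genes (1.24%), and limma voom called 0. DESeq2 without the block called none of the 34 either, against 0.0513% of genes. The log2 fold change was positive for 32 of the 34, against 52.5% of all genes, with a median of 0.44 against 0.02. Without the block, that direction moved when single libraries were left out. Without KO 3 only 14 of the 34 were positive and the median was -0.16. Without f/f 3 the count was 33 and the median 1.39. Leaving out 1 library made the numbers unequal between the genotypes, so the gap between numbers entered these values. Without both libraries numbered 3, 31 of 32 tested genes were positive, with a median of 0.65. The sign turned in 20 genes without KO 3, in 10 without f/f 2, in 9 without f/f 1, in 2 without KO 1 and in 1 (Cxcl3) without f/f 3. When the library labelled Gata2 KO 2 was left out, 33 of 35 tested genes were positive, with a median of 0.70. With the library number as a block, edgeR again called 0 of the 34 and 0% of all genes. The median was then 0.56, and 14 of the 34 had an unadjusted p under 0.05, against 10.7% of all genes. The block assumes that equal numbers pair, which the check of paired deviations could not show for numbers 1 and 2. The groups overlapped for all tested genes but Nfkbib, whose means were 37.1 ± 2.51 CPM in f/f and 48.6 ± 8.10 CPM in KO libraries (SD, n = 3 each); 2.64% of all genes lay wholly above in KO and 2.78% wholly below, none of the 34 among the latter. With f/f 3 left out, 23 of the 34 lay wholly above, against 16.8% of all genes. That set kept number 3 in KO only, so the gap between numbers entered this count. Over the libraries left out, the count ran from 1 to 23.

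Within numbers the direction was more regular. The KO library was the higher one for 30 of the 34 genes in number 1, 33 in number 2 and 26 in number 3, against 52.6%, 54.1% and 49.7% of all genes. Median log2 differences were 0.73, 0.64 and 0.34. The library labelled Gata2 KO 2, whose Gata2 level was 43.3 CPM, thus lay above f/f 2 for nearly all of these genes. The KO library was higher within all 3 numbers for 23 of the 34 genes, against 20.7% of all genes, and lower within all 3 for Cxcl3, against 17.7%. All 5 IkB genes and all 4 tested TNF family genes were among the 23, whereas the subunits gave 3 of 5, the CC chemokines 4 of 6 and the interleukin and inflammasome genes 2 of 4. The log2 differences within numbers 1, 2 and 3 were 1.93, 2.10 and 1.14 for Saa3, and 1.45, 1.20 and 0.62 for Bcl3. Those of Tnf were 1.38, 1.01 and 0.70. Ccl2 was uneven, with 0.06, 2.30 and 0.43.

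**Figure D3:**
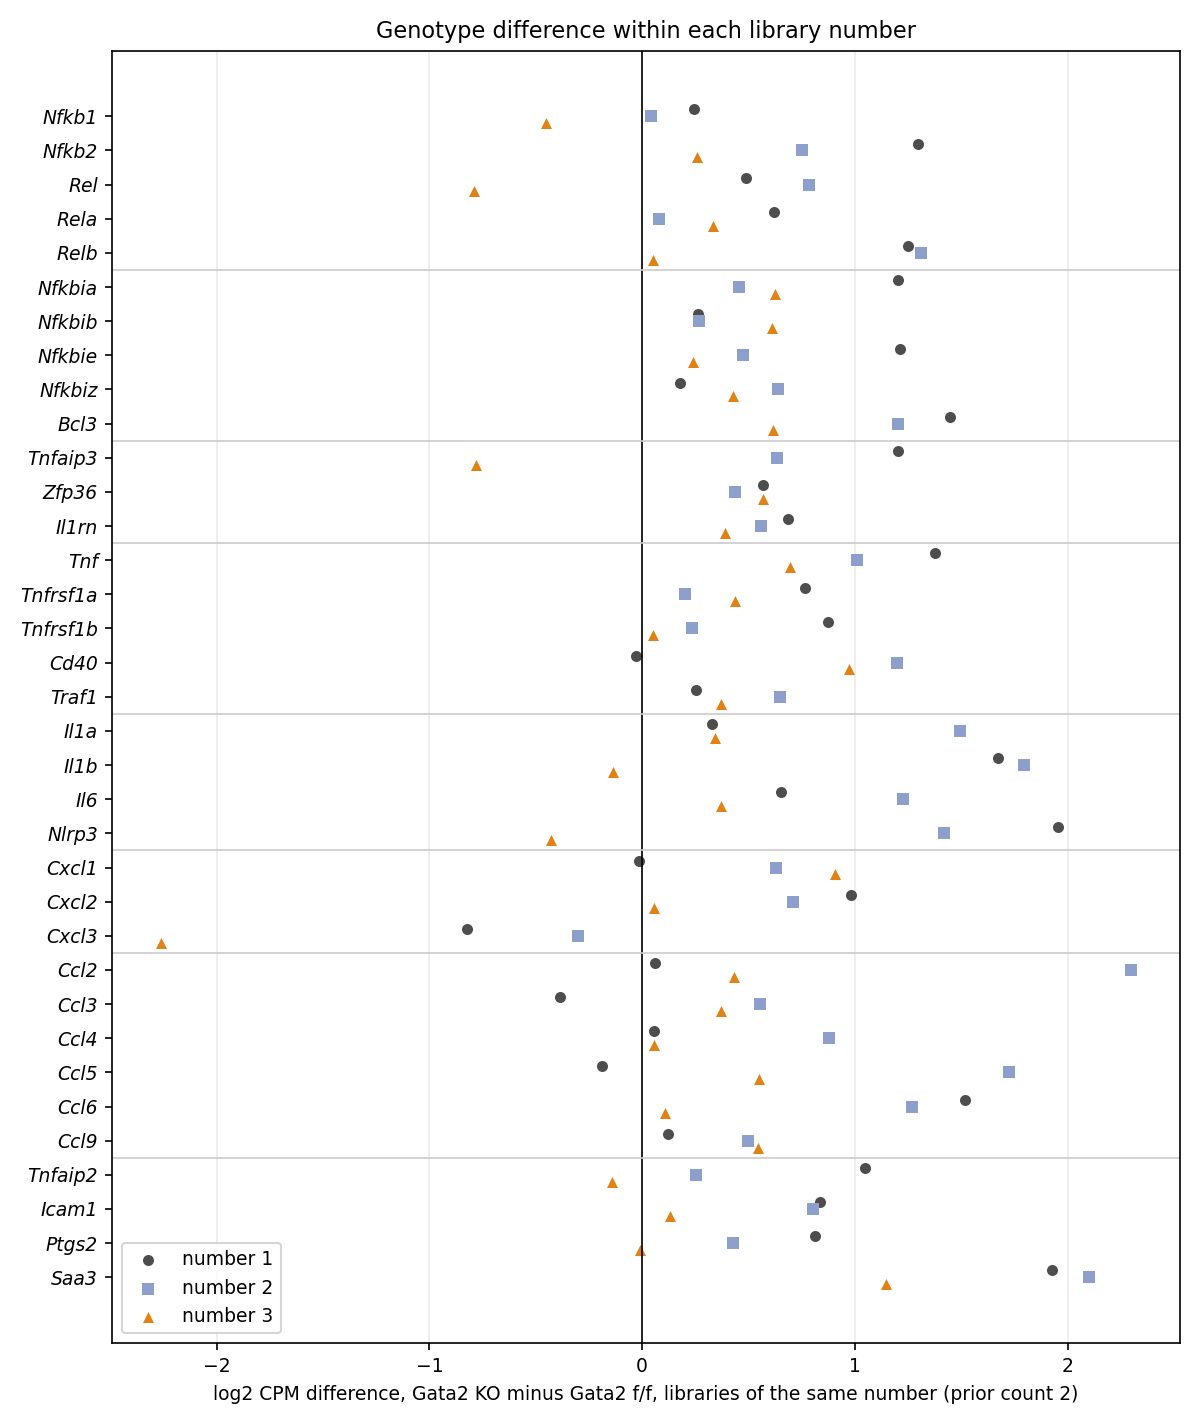
Difference in log2 CPM (prior count 2) between the Gata2 KO and the Gata2 f/f library of the same number, for each of the 35 genes grouped by role; circles, squares and triangles stand for numbers 1, 2 and 3, and the vertical line marks no difference. Cxcl3 lies left of 0 in all 3 numbers, and Rel, Nfkb1, Tnfaip3, Il1b, Nlrp3, Tnfaip2 and Ptgs2 lie right of 0 in numbers 1 and 2 and left of it in number 3.

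With the block, DESeq2 called 3 of the 34 genes, all higher in KO: Saa3 (1.70 ± 0.25 on the log2 scale, adjusted p = 6.67e-08), Bcl3 (1.07 ± 0.26, DESeq2 adjusted p = 0.00561) and Ccl6 (0.95 ± 0.28, DESeq2 adjusted p = 0.0411). Its background was 1.42% of genes higher and 0.331% lower. Saa3 was higher in KO in 3 of 3 numbers. It was the only one of the 34 called whichever of the 6 libraries was left out, at 1.52 to 1.99 on the log2 scale. With the block, leaving out 1 library also took its partner of the same number out of the genotype difference. The 6 fits thus held 3 distinct comparisons and were not 6 separate checks. For example, Saa3 was at 1.60 both without f/f 1 and without KO 1. Without any one of f/f 1, f/f 2, KO 1 or the library labelled Gata2 KO 2, Saa3 was also the only one called. Without the last of these it was at 1.52 (DESeq2 adjusted p = 0.00856), against 0.320% of genes higher in KO. Without f/f 3 or without KO 3, which leaves the genotype difference to numbers 1 and 2, DESeq2 called 9 of the 34, all higher in KO: Saa3, Bcl3, Nlrp3, Ccl6, Relb, Nfkb2, Icam1, Nfkbia and Il1b, against 2.98% and 2.97% of genes higher. In edgeR with the block, Saa3 alone was called when the library labelled Gata2 KO 2 was left out (1.53, edgeR adjusted p = 0.0289), where 0.231% of genes were higher in KO. These calls by DESeq2 were lost in edgeR with all 6 libraries (edgeR with the block: Saa3 1.72 ± 0.23, adjusted p = 0.261). Neutrophil markers moved the same way, with 5 of 9 called higher in KO by the same DESeq2 fit, and their summed level was 284, 580.0 and 2033 CPM in f/f and 1855, 618 and 3621 CPM in KO libraries. Monocyte and macrophage markers were also higher in KO by their sum within each number (700, 863 and 2230.2 CPM in f/f against 1023, 914 and 2768 CPM in KO libraries), with 10 of 12 positive in edgeR with the block and 1 of 12, Cd68, called by the same DESeq2 fit (1.30, adjusted p = 7.51e-06). The part of either marker list in the result was not tested.

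The gap between number 3 and the rest was also compared between genotypes. The ratio of the library numbered 3 to the mean of numbers 1 and 2 was larger in f/f than in KO for 29 of the 34, against 54.9% of all genes. For Ccl6 the ratio was 37.5 in f/f and 15.3 in KO, and for Nlrp3 it was 10.3 and 2.28. In a test of this difference itself, the interaction of genotype and number 3, edgeR called 0 of the 34 and 0% of all genes, with 6 of the 34 at an unadjusted p under 0.05 (Nlrp3, Tnfaip3, Ccl6, Il1b, Rel and Relb) against 9.90% of all genes. DESeq2 called Nlrp3 alone (-2.17 ± 0.58 on the log2 scale, adjusted p = 0.0322), against 0.706% of genes; the edgeR value was -2.18 ± 0.50 (adjusted p = 0.473). In edgeR, Nlrp3 was also called without KO 1 (-1.77, adjusted p = 0.0354), together with Ccl2, and without the library labelled Gata2 KO 2 (-2.50, adjusted p = 0.00889), together with Tnfaip3. Each genotype has a single library numbered 3, so the lone library was assumed to vary like the others.

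Other genes of the pathway were read from 4 lists. The 26 signalling genes between receptor and NF-kB, such as the IkB kinases and the TRAF adaptors, were nearly level in sum, at 1048 to 1378 CPM over the 6 libraries. Single genes moved either way: Chuk was 57.4 CPM in f/f 2 and 21.7 CPM in KO 3, and Ikbke 17.1 and 63.4 CPM in the same libraries. Of the 26, 3 (Myd88, Irak2 and Ikbke) rose in number 3, a share close to the 12.0% of all genes. Of 17 further feedback genes, 5 rose in number 3, led by the cytokine signalling suppressor Socs3 (2.94, edgeR adjusted p = 0.00388). Of 9 inflammasome genes, 3 rose, Casp1, Pycard and Il18. The cytokine and chemokine receptors moved most, with 7 of 9 tested higher in number 3, and none of the 61 tested genes of the 4 lists was lower there. Ccr1 stood at 21.7, 22.7 and 245 CPM in f/f and 64.0, 52.3 and 361 CPM in KO libraries. This CC chemokine receptor thus had the same order of libraries as Ccl6, with those numbered 3 highest and f/f 1 and f/f 2 lowest.

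Between genotypes, edgeR without the block called none of the 61 tested genes of these lists. The log2 fold change was positive for 16 of 17 feedback genes (median 0.33), 8 of 9 receptors (0.66), 7 of 9 inflammasome genes (0.48) and 15 of 26 signalling genes (0.07), against 52.5% of all genes and a median of 0.02, so the signalling genes lay near the background. The genes of smallest p were Gadd45b (0.62 ± 0.29), Tnfaip8l2 (1.17 ± 0.70), Tnip1 (0.51) and Zc3h12a (0.70) in feedback, and Cxcr2 (2.66 ± 1.10), Il6ra (0.68), Il1r2 (1.42) and Il6st (0.46) among receptors. In the inflammasome list they were Casp4 (0.78 ± 0.36), Gsdmd (0.58), Aim2 (-0.45) and Nek7 (-0.41), and in signalling Tradd (0.45), Map3k14 (0.86), Card9 (0.45) and Traf5 (0.83). With the block, DESeq2 called 6 of the 61, all higher in KO, against 1.42% of all genes, among them the receptors Cxcr2, Il1r2 (the IL-1 decoy receptor) and Ccr1 and the feedback genes Socs3 and Tnfaip8l2. Cxcr2, the receptor for the CXC chemokines, stood at 6.50, 3.39 and 19.1 CPM in f/f and 33.1, 7.06 and 144 CPM in KO libraries (2.13, DESeq2 adjusted p = 4.79e-07). Cxcr2 is also a neutrophil gene, and the neutrophil markers in these libraries moved with it.

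**Figure D4:**
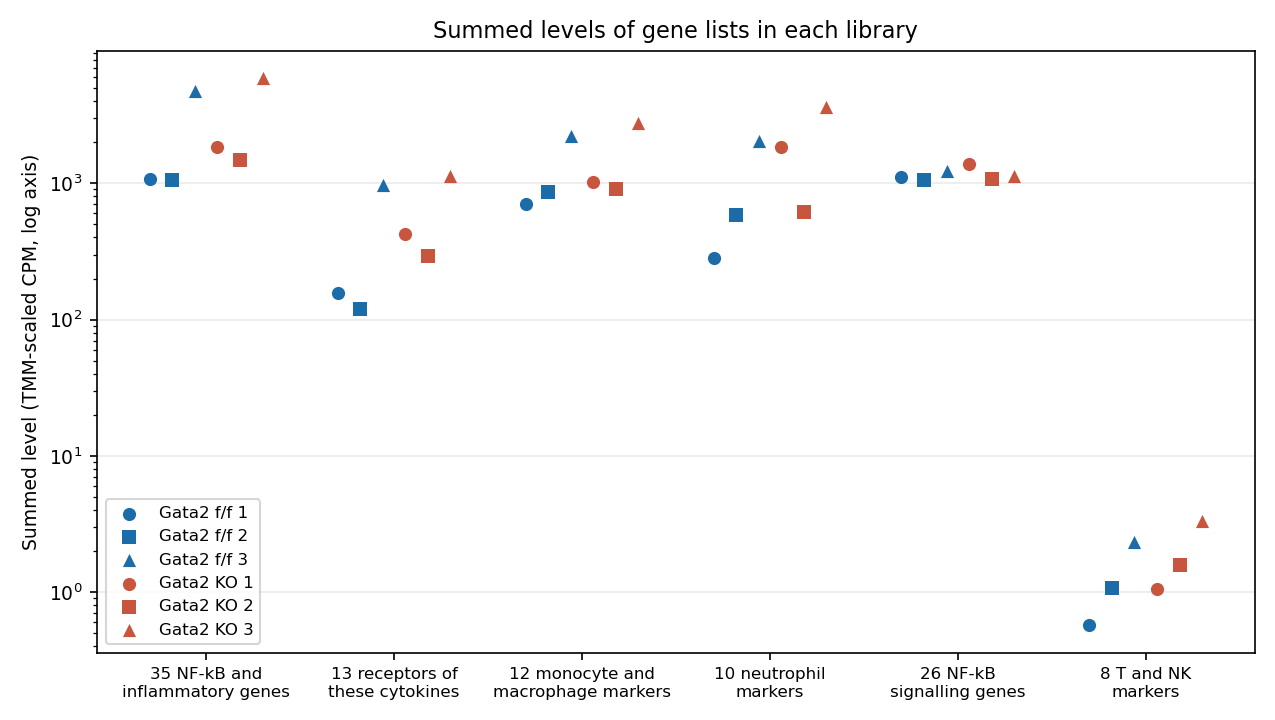
Summed level (TMM-scaled CPM, log axis) of the 35 genes, of 13 cytokine and chemokine receptors, of 12 monocyte and macrophage markers, of 10 neutrophil markers, of 26 NF-kB signalling genes and of 8 T and NK cell markers in each library; blue stands for Gata2 f/f, red for Gata2 KO, and circles, squares and triangles for numbers 1, 2 and 3. The 35 genes, the receptors and the monocyte, neutrophil and T and NK cell markers are all highest in both libraries numbered 3, the last of these at a very low level. The sum of the signalling genes is nearly level.

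The summed level of the 35 genes was 1079, 1055 and 4719 CPM in f/f and 1851, 1489 and 5906 CPM in KO libraries, which was 0.110% to 0.192% of counts in the libraries numbered 1 and 2 and 0.471% and 0.532% in those numbered 3. Without Ccl6, Ccl9 and Saa3 it was 849.8, 760.4 and 1751 CPM in f/f and 1448, 976 and 1993 CPM in KO libraries, so these 3 genes held most of the rise in number 3, and the remaining 32 still had their highest sums there.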

How the data were processed

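Poly(A) RNA libraries of 6 samples, 3 per genotype, were sequenced from both ends (90 bp reads), as the labels' protocols state. The authors deposited raw counts per gene as whole numbers; kallisto, HTSeq, DESeq2 and mm10 are named in the submitters' processing notes with no role, and the counting tool and strand use were not given in the sources used here. Identifiers were matched without version to GENCODE M21. Genes passing edgeR's filterByExpr (minimum count 10; 13744 genes, 27.7%) were scaled by TMM and tested by edgeR's quasi-likelihood test with Benjamini-Hochberg adjustment over all of them (threshold 0.05). The genotype fit had no block. The fit between numbers had genotype and number as terms, and the interaction, the DESeq2 block fits without single libraries, the edgeR block fit without both libraries numbered 3, the groups' overlap without single libraries and the other scalings of the order of numbers were added after the data were seen. Standard errors of edgeR values come from the F statistic.

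The members and lists were chosen with earlier results of these data known. The genes named are all members, Gata2 and up to 4 genes of smallest p per pathway list; marker genes, genes called between numbers and genes called by DESeq2 were named after their values were seen. Equal numbers were taken to pair the samples. The deviations from group means correlated at 0.294, 0.555 and 0.653 within numbers 1, 2 and 3, all over the bound set for this check. However, f/f 1 correlated more with the library labelled Gata2 KO 2 (0.455) than with KO 1. The check therefore cannot show that the libraries numbered 1 and 2 pair by number. The block fits and the comparisons within numbers assume this pairing. The samples are called independent by the series' design text, with no word on separate animals or cultures, so the spread behind each p-value may be technical. Other settings were DESeq2, limma voom, other scalings, other filters and libraries left out. The code was tested on simulated data. R 4.3.3, edgeR 4.0.16, limma 3.58.1 and DESeq2 1.42.0 were used. The values of 1 gene of the receptor list are not reported here.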

Additional observations from a re-analysis of the deposited data

How the results depend on the processing

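Under all scalings, filters and tools run with all 6 libraries, 25 to 27 of the 34 genes passed between numbers, and 20 to 26 with 1 library left out; the count over all genes then ran from 1492 to 4318. Both libraries numbered 3 lay above the rest for 25 or 26 genes under each scaling. Rel turned without f/f 3 (range over libraries left out -0.42 to 0.98). Between genotypes, edgeR and limma voom called 0 of the 34 genes under every setting with all 6 libraries, and DESeq2 called 7 of all genes. The replicate block with edgeR kept the count at 0. With DESeq2 and the block 3 of the 34 and 222 of all genes were called. In that fit the counts of the 34 and of all genes were 1 and 32 without f/f 1, 1 and 65 without f/f 2, 9 and 393 without f/f 3, 1 and 38 without KO 1, 1 and 67 without the library labelled Gata2 KO 2, and 9 and 398 without KO 3. With the block, leaving out 1 library left the genotype difference to the other numbers, so libraries of equal number gave nearly the same comparison. With edgeR and the block, 1 of the 34 and 54 of all genes were called without the library labelled Gata2 KO 2, where Ccl3 (-0.0061) and Rel (-0.16) turned, and 0 and 8 without both libraries numbered 3, where Nfkb1 turned (0.11; 0.11 also without the block). The causes were not tested. The interaction called 1 gene with DESeq2 and 0 to 2 with 1 library left out. Non-overlap with KO above ran from 1 to 23 genes with 1 library left out. In DESeq2 with the block, leaving out 1 library gave 31 to 33 positive genotype differences, with medians of 0.47 to 0.72. Without the block, leaving out 1 library moved the number of positive genotype differences from 14 to 33 and their median from -0.16 to 1.39, and turned the sign of 23 genes.

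The ranges of log2 fold change for these 23 were as follows. In the interleukin and inflammasome genes they were -1.34 to 2.72 for Il1a, -0.26 to 2.40 for Il1b, -0.46 to 2.48 for Il6 and -0.31 to 2.22 for Nlrp3. In the CXC chemokines they were -0.12 to 1.17 for Cxcl1, -0.58 to 1.76 for Cxcl2 and -4.00 to 1.13 for Cxcl3. In the CC chemokines they were -1.62 to 3.71 for Ccl2, -0.21 to 0.66 for Ccl3, -1.48 to 2.11 for Ccl4, -1.11 to 3.03 for Ccl5, -2.33 to 3.90 for Ccl6 and -0.62 to 1.41 for Ccl9. In the inhibitors they were -0.022 to 1.62 for Nfkbia, -0.076 to 1.36 for Nfkbie, -0.20 to 1.03 for Nfkbiz, -0.82 to 1.85 for Il1rn and -0.23 to 0.90 for Tnfaip3. They were -0.23 to 0.18 for Nfkb1, -0.15 to 0.46 for Rel, -0.25 to 1.94 for Relb, -0.26 to 1.13 for Ptgs2 and -0.80 to 4.02 for Saa3. Genes with few counts, such as Il6 and Cd40, are limited by depth.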
